A study of Mus musculus with 10 samples.

Results

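Induced oligodendrocyte progenitor cells (iOPC) at passage 25 were compared with primary oligodendrocyte progenitor cells (OPC) on 4 of the 10 bead arrays of the study, 2 for each group. All groups came from C57BL/6 mice, and the induced cells, headed PC2FiOPCp25, were derived from pericytes, the mural cells that wrap brain capillaries, and had been passaged 25 times. The factors used for induction, the age of the animals and the origin of the primary cells are not given in the sources used here. The other 6 arrays, of pericytes (PC) and of induced cells at passages 5 and 15, entered the normalization and the estimate of the spread, and some PC levels are given for reference. The primary cells are headed OPC, while their cell type label reads oligodendrocyte, so the labels do not settle which stage was profiled. The protocol also describes an extra amplification of RNA for cells sorted after transplantation, but does not name the samples treated so. Members were probes with 1 gene symbol that 2 or more of these 4 arrays detected (p-value below 0.01), as did 11839 of 23978 probes with a symbol. They stand for 8545 genes, and 10214 of them were detected on all 4 arrays, 306 on both passage 25 arrays and no OPC array, and 599 on both OPC arrays and no passage 25 array.

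OPC are the dividing, migrating cells of the central nervous system that give rise to myelin-forming oligodendrocytes. They carry the receptor for platelet-derived growth factor, Pdgfra, and the proteoglycan NG2, encoded by Cspg4, and the transcription factors Olig1, Olig2, Sox10 and Nkx2-2 set the lineage. On differentiation they leave the cell cycle and switch on genes for myelin proteins and for the synthesis of cholesterol and galactolipids, of which the sheath is built. The comparison asks how the expression profile of the induced cells after long passage relates to that of the primary cells.

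The study deposited the arrays as 2 tables, non-normalized signals with detection p-values and a table of log2 values, and profiles under like headings differed between them. Across 9403 probes that every array detected, the like-named PC columns correlated at 0.960 to 0.963 between the tables. The OPC columns correlated at 0.830 and 0.833 and the passage 25 columns at 0.856 and 0.842. The OPC columns of the value table matched the signal columns headed passage 15 most closely, at 0.964 and 0.965, and its passage 25 columns matched the first signal column headed passage 5, at 0.892 and 0.880. Eif2s3y, a Y-linked gene, was not detected on the 4 signal arrays compared and stood at 9.76 and 9.62 in the OPC columns of the value table. In the columns headed passage 15 it stood at 9.90 and 9.75 in signal and at 2.19 and 1.23 in value. It was not detected in the PC and passage 5 signal columns. Xist, which is transcribed from the inactive X chromosome, stood at 9.42 and 9.48 in the OPC signal columns against 1.55 and 1.47 in the OPC columns of the value table. No column was reassigned, so every comparison was made in each table with its own headings, signal first and value second, and which table carries the right headings was not tested. Replicates were alike within OPC and passage 25, at 0.996 and 0.995 in the signal table and 0.995 and 0.990 in the value table. The value columns headed passage 5, which entered the estimate of the spread, correlated with each other at 0.908.

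**Figure D1:**
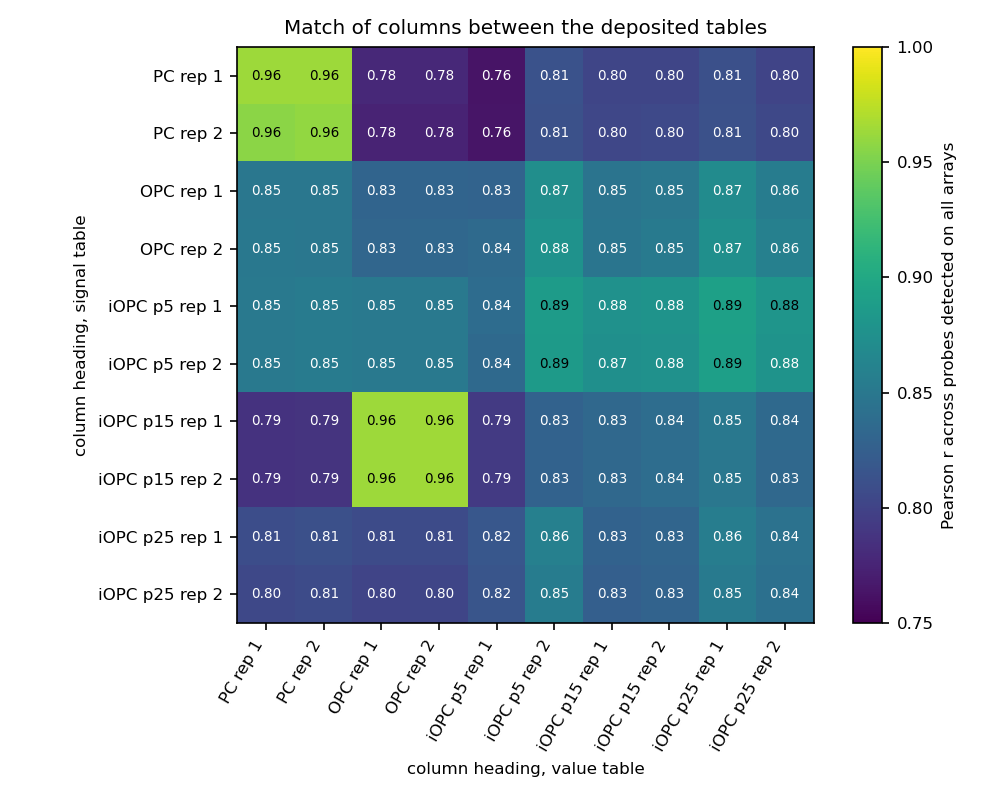
Pearson correlation across 9403 probes between each column of the signal table (rows, log2 of the non-normalized signal) and each column of the value table (columns, deposited log2 value), iOPC p25 being the induced cells at passage 25. Only the PC headings and the pairing of passage 15 signals with OPC values reach 0.96.

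Among genes of premyelinating cells and the myelin sheath, 15 of 28 were higher in passage 25 iOPC than in OPC in both tables. The share of all genes called so was 9.83%. Mog, a surface protein of the outermost myelin layer, and Mag, the adhesion protein facing the axon, had some of the largest rises in each table. Mal, a proteolipid of compact myelin, was among the largest rises in value and among the largest shared by both tables. In the other direction Dlk1, an imprinted transmembrane relative of the Notch ligands, Slc1a3, the glutamate transporter GLAST, and Igfbp2, a secreted binder of insulin-like growth factors, were lower in passage 25 iOPC in both. Beyond these the tables diverged: 1559 of 8545 genes (18.2%) were called in the same direction in both, and 1184 (13.9%) in opposite directions.

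The promoters of Mog, Mag and Mal, the myelin genes with the largest rises shared by both tables, are shown for reference, from RefSeq on mouse build GRCm38.p6, from 250 bases before to 50 after the start of transcription, each read along the gene's strand. Capitals mark matches on either strand to ACAAAG, the core recognised by Sox factors, and to CTGGCAC and CTGGTAC, forms of the site of the myelin regulator Myrf. The window of Mog lies at chr17:37023349-37023648, that of Mag at chr7:30914814-30915113 and that of Mal at chr2:127656646-127656945, all on the minus strand, and Mag is shown by 1 of 3 windows that the table holds.
Mog: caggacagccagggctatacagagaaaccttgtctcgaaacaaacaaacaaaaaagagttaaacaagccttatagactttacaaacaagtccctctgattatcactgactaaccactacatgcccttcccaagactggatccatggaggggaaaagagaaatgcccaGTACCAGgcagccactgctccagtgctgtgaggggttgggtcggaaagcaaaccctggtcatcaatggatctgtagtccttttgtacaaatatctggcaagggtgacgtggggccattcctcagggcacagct
Mag: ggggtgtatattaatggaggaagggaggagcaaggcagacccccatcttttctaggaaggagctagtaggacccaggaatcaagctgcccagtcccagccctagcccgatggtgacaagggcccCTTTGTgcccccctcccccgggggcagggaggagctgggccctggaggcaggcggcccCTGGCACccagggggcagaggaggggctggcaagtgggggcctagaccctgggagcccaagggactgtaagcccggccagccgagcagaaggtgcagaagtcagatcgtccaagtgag
Mal: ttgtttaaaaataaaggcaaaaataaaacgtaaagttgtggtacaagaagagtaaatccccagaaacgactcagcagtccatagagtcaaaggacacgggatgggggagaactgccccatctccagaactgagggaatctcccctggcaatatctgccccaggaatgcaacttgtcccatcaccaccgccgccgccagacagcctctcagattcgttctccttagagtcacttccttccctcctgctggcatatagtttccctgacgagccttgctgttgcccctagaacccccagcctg
Of 32851 such windows, 18.7% held ACAAAG, 5.01% CTGGCAC and 2.24% CTGGTAC. Among the 33 windows of the 21 tested myelin genes that the table lists, 10, 4 and 1 held them. Windows of 1 gene can overlap and count the same match again, as the Mag window shown does with another. The remaining Mag window held no match. A match describes the letters and does not show a bound site.

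In signal, 2575 genes (30.1%) were called higher in passage 25 iOPC and 2722 (31.9%) lower, together 62.0% of those tested. A call is an adjusted p under 0.05 in limma's moderated test, with Benjamini-Hochberg adjustment over all genes. Most of these differences were small, with a median absolute log2 difference of 0.37 over all genes, and 665 genes (7.78%) were called higher and 613 (7.17%) lower at 2-fold or more. When arrays were scaled to their medians in place of their quantiles, the median of all genes moved by 0.101 and the split became 3118 higher and 2130 lower. In value, 2288 genes (26.8%) were called higher and 1798 (21.0%) lower, together 47.8%. The value calls numbered 4086, and 4989 when the arrays headed passage 5 were left out of the fit. At 2-fold or more, 15.0% of genes were called in signal and 30.3% in value, there 1482 higher (17.3%) and 1110 lower (13.0%). Without OPC replicate 1, OPC replicate 2 or passage 25 replicate 2, the value table gave 1132, 1150 and 1174 lower calls. Its median absolute difference was 0.63, and only genes detected in the signal columns were tested there, since it has no detection p-values. The arrays of the groups did not overlap for 80.5% of genes in the signal table and 82.5% in the value table.

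The 1559 genes called alike consisted of 840 higher (9.83%) and 719 lower (8.41%), which is 29.4% of the signal calls and 38.2% of the value calls. Without OPC replicate 1, OPC replicate 2 or passage 25 replicate 2, 972, 1006 and 1014 genes were called alike. Of the genes called in opposite directions, 492 were higher in the signal table and lower in the value table, and 692 the reverse. The differences in signal and in value correlated at r = 0.055 across genes, which share arrays and are not replicates. OPC and passage 25 columns correlated at 0.936 in the signal table and at 0.850 in the value table. Labels do not say that replicates were separate cultures, so p-values measure only the spread between these arrays.

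**Figure D2:**
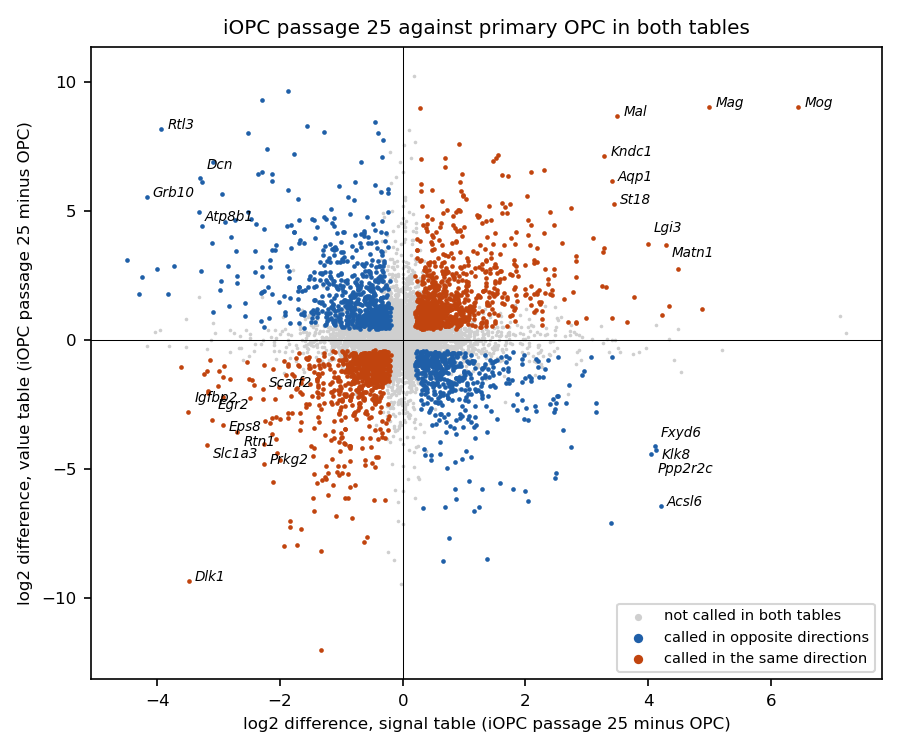
Each point is 1 of 8545 genes, with the log2 difference (iOPC passage 25 minus OPC) in the signal table on the x axis and in the value table on the y axis; fitted values are drawn also for genes below background in a group. Genes called in the same direction (1559) and in opposite directions (1184) fill all 4 quadrants, with Mog, Mag and Mal at the upper right and Dlk1 at the lower left.

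Mog was among the genes with the largest shared rise. Its normalized log2 signal was 4.92 and 4.65 in OPC, where only 1 array detected it, and 11.23 on both passage 25 arrays. Its log2 value was 1.87 and 1.72 in OPC and 10.76 and 10.88 at passage 25. The fitted log2 differences were 6.45 ± 0.109 (SE of the fit; limma adjusted p = 1.00e-10), with the OPC level near background, and 9.02 ± 0.380 (adjusted p = 2.70e-06). In PC it stood near background at 4.24 and 4.41 in signal.

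Mag had signals of 7.70 and 7.79 in OPC and 12.83 and 12.65 at passage 25, and values of 2.66 and 2.81 against 11.79 and 11.71. The differences were 5.00 ± 0.126 and 9.02 ± 0.159 (limma adjusted p = 8.10e-10 and 1.79e-07), so the tables agreed on direction and differed on the level in OPC, which was well above background in one and low in the other. Mal had signals of 7.41 and 7.68 in OPC and 11.04 and 11.06 at passage 25, and values of 1.55 and 1.39 against 10.35 and 9.96. It rose by 3.50 ± 0.136 and 8.68 ± 0.198 on the log2 scale.

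St18, a zinc finger transcription factor of the Myt1 family, had signals of 5.87 and 6.09 in OPC and 9.44 and 9.40 at passage 25. Its values were 2.03 and 2.08 against 7.29 and 7.34, for differences of 3.44 and 5.26. Aqp1, a water channel, rose by 3.41 and 6.17, and it was also well detected in PC, at 8.23 and 8.32 in signal against 9.73 and 9.67 at passage 25. Kndc1, a brain regulator of Ras signalling, rose by 3.28 and 7.12. Lgi3, a secreted leucine-rich repeat protein, and Matn1, the cartilage matrix protein matrilin-1, were not well above background on the OPC signal arrays. They were therefore at least 14.2-fold and at least 15.0-fold higher at passage 25 in signal, the bound being the mean bright level against the lowest detected level of each dim array. In the value table they rose by 3.71 and 3.66.

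Among the shared falls, Dlk1 had signals of 7.80 and 7.78 in OPC and was not well above background at passage 25, at least 7.26-fold lower. Its values were 10.88 and 10.76 in OPC against 1.37 and 1.57, a log2 difference of -9.34 ± 0.156. Slc1a3 fell from signals of 8.56 and 8.55 to 5.29 and 5.44, and from values of 12.85 and 12.72 to 8.61 and 8.82, differences of -3.19 and -4.07. Igfbp2 fell from 12.44 and 12.40 to 8.79 and 9.06 in signal and from 11.52 and 11.56 to 8.85 and 8.64 in value. These 3 genes are expressed in neural progenitors. The shared rises and falls were picked among genes without overlap between groups in either table.

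Egr2, a zinc finger factor known as a regulator of Schwann cell myelin, was bright in the OPC signal columns at 11.63 and 11.70 and stood at 8.59 and 8.52 at passage 25. It fell by 3.11 and 3.12 on the log2 scale in the signal and value tables. Eps8, an actin-capping substrate of the epidermal growth factor receptor, fell by 2.93 and 3.30, and Rtn1, a reticulon of the endoplasmic reticulum, by 2.70 and 3.58. Scarf2, a scavenger receptor, and Prkg2, a cyclic GMP-dependent kinase, were not well above background at passage 25 and were at least 3.40-fold and at least 4.31-fold lower in signal, with value differences of -2.29 and -4.81. Both were brighter in PC than in OPC in signal, Scarf2 at 11.04 and 10.73 and Prkg2 at 9.48 and 9.55. The Scarf2 values of both groups lie under 4, and with values under 4 set to 4 its difference was 0.

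**Figure D3:**
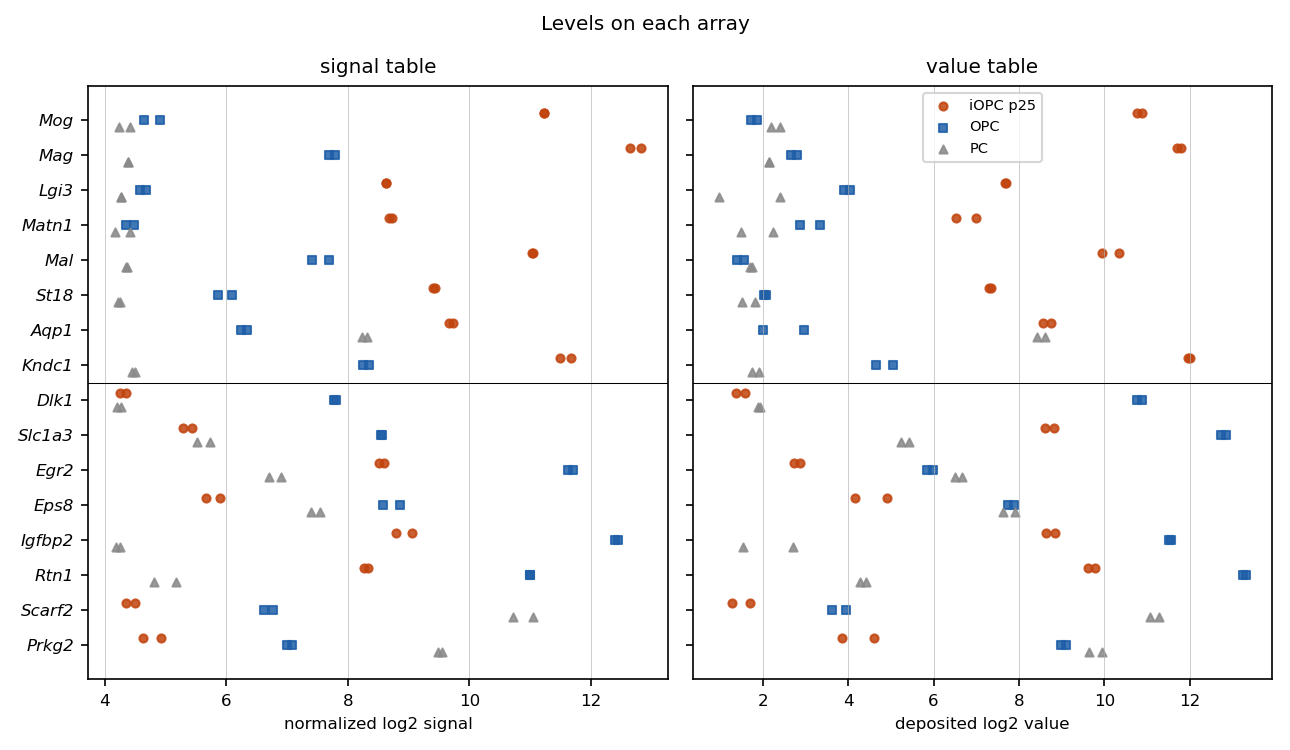
Level on each array of the 8 genes with the largest shared rise (above the line) and the 8 with the largest shared fall (below it), as normalized log2 signal on the left and deposited log2 value on the right, for iOPC passage 25 (circles), OPC (squares) and PC (triangles), 2 arrays each. The genes were picked so that the circles lie clear of the squares in every row, and signals near 4 to 5 are at background.

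Of the 28 tested genes of premyelinating oligodendrocytes and myelin, 23 rose and 3 fell in the signal table, against 30.1% and 31.9% of all genes, with a median log2 difference of 1.77 (all genes, -0.008). In value, 16 rose and 1 fell, against 26.8% and 21.0%, with a median of 1.32 (all genes, 0.067). Of all genes, 9.83% rose in both tables. The 15 of the list that did were Mog, Mag, Mal, Mbp, Cnp, Gal3st1, Fa2h, Enpp6, Sirt2, Gjc3, Gjb1, Cryab, Tspan2, Cd9 and Plekhb1. The list was drawn up with earlier results of these data known, so its count is a description. Its summed linear level over 31 genes on the array was 47701 and 47164 in OPC and 109620 and 106060 at passage 25 in signal, and 20948 and 20935 against 55030 and 50512 in value. In such bulk samples, a larger share of cells of a type and more RNA per cell cannot be told apart.

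Mbp, which encodes the major cytoplasmic protein that compacts the sheath, had signals of 8.69 and 8.95 in OPC and 10.80 and 10.89 at passage 25, and values of 6.20 and 5.93 against 11.75 and 11.54. It rose by 2.03 and 5.58, read from its brightest probe, while another of its 3 probes fell by 0.94 in signal. Cnp, a phosphodiesterase of non-compact myelin, rose by 2.18 and 1.14. The enzymes of myelin galactolipids rose too, Fa2h, which hydroxylates their fatty acids, by 2.82 and 2.44 and Gal3st1, which makes sulfatide, by 1.51 and 1.78. Enpp6, a choline phosphodiesterase that marks newly forming oligodendrocytes, rose by 2.22 and 1.91, and the tetraspanins Tspan2 and Cd9 by 2.13 and 1.77 and by 1.38 and 1.43. The connexins Gjc3 and Gjb1 rose by 0.47 and 4.67 and by 1.09 and 1.19.

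Several genes of the list changed in a single table. Bcas1, a marker of premyelinating cells, had signals of 8.99 and 9.09 in OPC and 13.52 and 13.54 at passage 25, a rise of 4.49. Its values were 13.33 and 13.27 against 13.77 and 13.64, high in both groups, and the difference of 0.41 was not called (adjusted p = 0.364). Pllp, a proteolipid, was at least 8.51-fold higher in signal, and Itpr2, a calcium release channel of newly formed oligodendrocytes, rose by 3.24. In value they differed by -0.02 and 0.53, neither called. Trf, the iron carrier transferrin, stood at 14.21, the top of the scale, on all 4 signal arrays and rose by 5.17 in value, from 7.75 and 7.99 to 13.25 and 12.83. Cldn11, the tight junction protein of myelin, was the exception that was called in opposite directions. It had signals of 13.45 and 13.40 in OPC and 14.12 and 14.03 at passage 25 and values of 10.91 and 11.03 against 2.05 and 2.71, differences of 0.65 and -8.59. Ermn, Aspa and Car2, genes of mature oligodendrocytes, were not detected on any of the 4 signal arrays. The values of Car2, carbonic anhydrase 2, were 7.15 and 7.09 in OPC and 3.11 and 2.57 at passage 25.

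**Figure D4:**
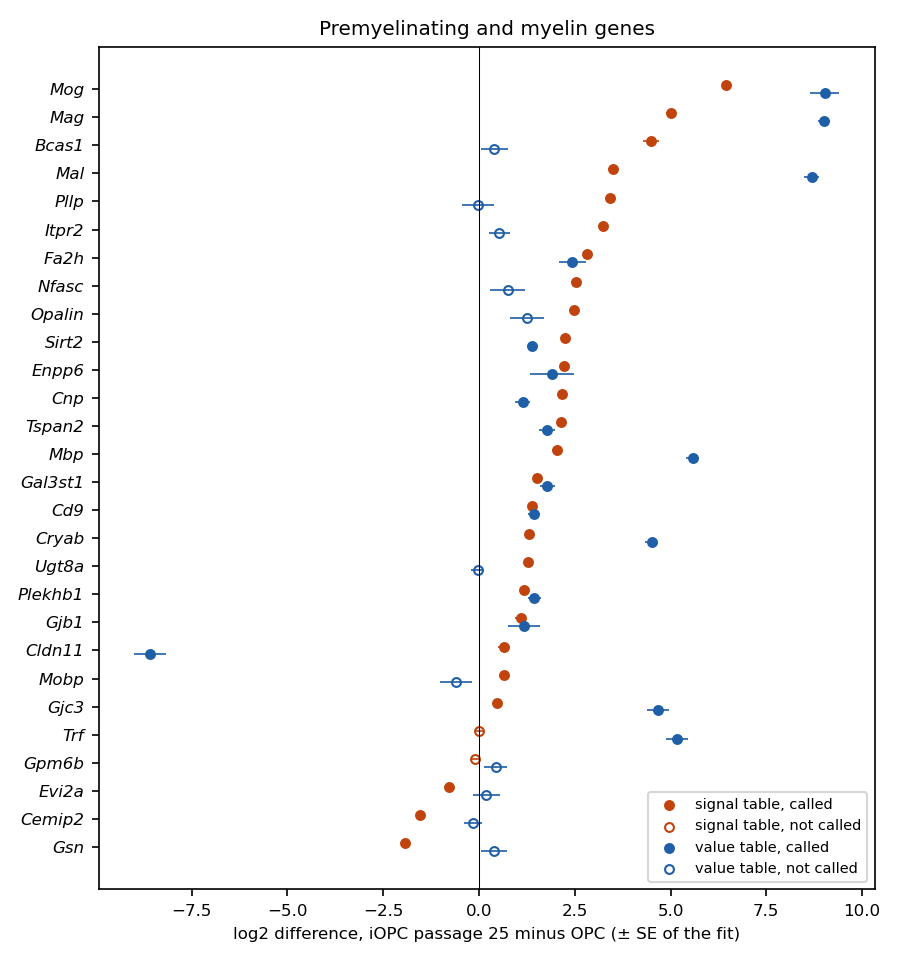
Log2 difference (iOPC passage 25 minus OPC) of the 28 tested premyelinating and myelin genes in the signal and value tables, with the standard error of the fit as bars and open symbols where the adjusted p was 0.05 or more. The genes with filled symbols right of 0 in both tables number 15, and Cldn11 lies on opposite sides.

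Genes that mark OPC themselves did not share 1 direction. Of 20 tested, 12 rose and 4 fell in signal (median 0.66), against 30.1% and 31.9% of all genes, and 5 rose and 9 fell in value (median -0.86), against 26.8% and 21.0%. The counts of the other gene lists stand against the same shares and against medians over all genes of -0.008 and 0.067. Counts called in both tables stand against 9.83% of all genes higher in both, 8.41% lower in both and 13.9% opposite. Pdgfra, the receptor for platelet-derived growth factor, was lower in both tables, from signals of 11.30 and 11.36 to 8.89 and 8.77 and from values of 12.95 and 13.07 to 11.73 and 11.23. The fall was 2.51 and 1.52 on the log2 scale (limma adjusted p = 3.74e-09 and 0.00147), to a signal under that of PC at 9.33 and 9.24. Cspg4, which encodes NG2, differed by 0.02 and 0.62, not called in either table (adjusted p = 0.886 and 0.546), and its levels were 9.67 and 9.45 in OPC and 9.57 and 9.58 at passage 25 in signal. Both groups stood far above PC, at 5.83 and 5.72.

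Gpr17, a receptor of the stage between OPC and oligodendrocyte, rose by 3.65 and 0.69, and Tnr and Lims2, markers listed for OPC, by 1.48 and 1.70 and by 2.46 and 2.51. Neu4, a sialidase, was not well above background in OPC signal and was at least 2.53-fold higher at passage 25, with a value difference of 3.95. Matn4, a matrilin of the OPC matrix, had signals of 11.77 and 11.88 in OPC and 12.30 on both passage 25 arrays and rose by 0.48, or by 0.01 (not called) when the median of its 3 probes was taken. In value it rose by 5.78. The proteoglycans of the perineuronal matrix diverged: Ncan, neurocan, had signals of 7.08 and 6.87 against 6.84 and 7.06 and values of 11.32 and 11.30 against 1.70 and 2.03, a fall of 9.45 in value. Vcan, versican, rose by 1.06 in signal and fell by 3.06 in value. Vxn, vexin, a neural differentiation gene, was at least 1.63-fold lower at passage 25 in signal and fell by 5.16 in value.

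Transcription factors of the oligodendroglial lineage split the tables. All 17 tested factors were called in signal, 8 higher and 9 lower, and in value 3 were higher and 13 lower, with medians of -0.21 and -1.77. Olig1 had signals of 10.21 and 10.24 in OPC and 12.04 and 12.01 at passage 25, a rise of 1.80, and values of 14.07 and 13.88 against 11.41 and 11.46, a fall of 2.54. Nkx2-2 was not well above background in OPC signal and was at least 1.33-fold higher at passage 25. In value it stood at 11.27 and 11.19 in OPC against 8.03 and 7.66, a fall of 3.39. Olig2, the master factor of the lineage, was detected on 1 of the 2 OPC signal arrays and on neither passage 25 array, and so was not tested. Its values were 8.29 and 8.27 in OPC and 5.01 on both passage 25 arrays.

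Of the 17 factors, 8 fell in both tables, where 8.41% of all genes did, 3 rose in both and 5 were opposite. Hey2, a target gene of Notch, rose in signal and fell in value. Hes1, a repressor induced by Notch, fell by 2.42 and 1.77, and Id4 and Id2, inhibitors of basic helix-loop-helix factors, by 1.17 and 3.90 and by 0.21 and 1.23. Sox2, a factor of neural stem cells, had signals of 9.24 and 9.09 in OPC and 8.41 and 8.40 at passage 25, and it fell by 0.76 and 0.87. Its call in the value table was lost whenever any 1 of the 4 arrays was left out. Sox9, a glial factor, was low in OPC signal at 4.94 and 5.25 and not well above background at passage 25, at least 1.12-fold lower, and fell by 7.82 in value from 9.86 on both arrays. With median scaling the Sox9 signal call was lost, at -0.23. Sox8, which acts with Sox10 in oligodendrocytes, rose by 3.14 in signal and fell by 2.46 in value. Besides St18, only Zfp536, detected on 1 OPC array, and Zeb2 rose in both tables, by 1.60 and 2.68 and by 0.32 and 0.77. Sox10 and Mki67 were not analysed here.

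Genes of matrix and of mesenchymal cells were often opposed between the tables. Of 32 tested extracellular matrix genes, 11 rose and 18 fell in signal (median -0.47), and 20 rose and 6 fell in value (median 2.33), with 11 called in opposite directions. Mmp2, a gelatinase, had signals of 13.37 and 13.22 in OPC and 11.49 and 11.37 at passage 25 and values of 3.00 and 3.70 against 13.03 and 12.97, differences of -1.87 and 9.65. Thbs2, thrombospondin 2, gave -2.29 and 9.27. The collagen-binding proteoglycans Dcn and Lum gave -3.30 and 6.27 and -3.09 and 6.87.

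Among the fibrillar collagens, Col1a1 rose in both tables, from signals of 9.30 and 9.52 to 10.40 and 10.32 and from values of 2.23 and 2.39 to 8.44 and 7.74, and Col3a1 fell by 0.45 in signal and rose by 8.41 in value. The collagen VI chains Col6a1 and Col6a2 rose by 0.69 and 7.04 and by 1.51 and 7.04. The matrix genes that fell in both tables numbered 5, namely Fbln1, Fbln2, Loxl1, Nid1 and Tnc, with Nid1, nidogen, at least 4.42-fold lower in signal and -4.05 in value. The summed linear signal of the 42 matrix genes on the array was 75820 and 74846 in OPC and 71360 and 68382 at passage 25, and the summed value 8038 and 8296 against 39484 and 37052.

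Of 11 tested cartilage-type matrix genes, 7 rose and 1 fell in signal (median 0.81, or 0.48 with genes below background at their bound; 4 rose among those detected on all 4 arrays), and 6 rose and 0 fell in value (median 2.51). Shared rises were those of Matn1, Matn4 and Col9a2, a chain of collagen IX, the last by 0.81 and 2.53. Hapln1, the link protein that ties proteoglycans to hyaluronan, had signals of 10.65 and 10.35 in OPC and 10.75 and 10.63 at passage 25, a difference of 0.19 that was not called, but that was called with median scaling (0.33) or without OPC replicate 1 (0.34). Its values were 1.21 and 1.22 against 11.46 and 11.42, a rise of 10.23.

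Of 29 markers of pericytes, from which the induced cells derive, 14 were detected on none of the 4 signal arrays. The share of all genes detected on none of them was not computed. By the detection filter, which asks for 2 of the 4 arrays, 12 of the 29 were tested, against 8545 of all 16593 genes. Among the 14, Rgs5 and Des were not detected in PC either, and Anpep was detected on both PC arrays. Pdgfrb, the defining receptor, was detected on both PC arrays, on 1 OPC array and on neither passage 25 array. The summed linear signal of the 29 genes was 5176 and 4831 in OPC, 4480 and 4314 at passage 25 and 3617 and 3318 in PC. Of 12 tested, 2 rose and 7 fell in signal (median -0.76, or -0.24 with genes below background at their bound), and 5 rose and 3 fell in value (median 0.46). Foxc1, a forkhead factor of meningeal and mural cells, had signals of 8.63 and 8.57 in OPC, 5.03 and 4.53 at passage 25, where only 1 array detected it, and 8.55 and 8.47 in PC, a fitted fall of 3.83, and rose by 1.77 in value. Tbx18, a mural cell factor, and Nt5e, the ectoenzyme CD73, rose in both tables, by 0.40 and 4.19 and by 1.84 and 2.67; the Tbx18 signal call was lost without OPC replicate 2 (0.35). Mcam, a mural adhesion molecule, fell by 1.27 in signal and rose by 3.63 in value.

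Contractile genes of smooth muscle were lower in signal in 6 of 11 and higher in 3 (median -0.47), and in value 6 rose and 2 fell (median 0.64). Acta2, smooth muscle actin, had signals of 8.85 and 8.88 in OPC, 9.33 and 9.31 at passage 25 and 11.21 and 11.22 in PC. It rose by 0.45 in signal, a call lost with the median probe (0.17), and differed by -0.47 in value, not called. Tpm1, tropomyosin 1, fell by 1.84 in signal and rose by 0.64 in value, and Pdlim7, an actin-associated scaffold, gave -1.30 and 3.29. Smtn, smoothelin, rose in both tables, by 0.55 and 0.90.

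Schwann cell and neural crest genes fell in 9 of 12 in signal and rose in 3 (median -1.36, or -1.12 with genes below background at their bound), while 8 rose and 2 fell in value (median 1.66; 5 rose without OPC replicate 1). The crest factors Tfap2b, Tfap2a and Twist1 were all bright in OPC signal, Tfap2a at 9.08 and 9.31 against 7.08 and 6.87 at passage 25. They fell by 2.52, 2.21 and 1.82 in signal, and all 3 rose in value, Tfap2a by 7.38 and Twist1 by 4.42. Dhh, a hedgehog ligand of Schwann cells, rose in both, by 1.62 and 1.42.

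Astrocyte genes were called in both directions in signal, 9 higher and 9 lower of 20 (median -0.17), and in value 2 rose and 12 fell (median -1.21). Besides Slc1a3, the genes lower in both were Gja1, Fgfr3, Clu, Id3 and Nes, encoding connexin 43, a fibroblast growth factor receptor, clusterin, an Id protein and nestin. Clu fell from signals of 8.05 and 8.23 to 6.68 on both arrays and from values of 6.48 and 6.52 to 2.15 and 1.88. S100b, a glial calcium sensor, was higher in both, by 1.64 and 3.65. Gfap, the astrocyte filament, had signals of 6.68 and 6.73 in OPC and 7.53 and 7.34 at passage 25, a rise of 0.73, and values from 1.82 to 3.20 with a difference of 0.42 that was not called. Acsbg1, a fatty acyl-CoA synthetase, and Apoe, the lipid carrier, rose by 3.40 and 2.05 in signal and fell by 7.12 and 3.13 in value. Aqp4, the astrocyte water channel, was detected on none of the 4 signal arrays, and its values were 7.67 and 7.66 in OPC and 1.65 and 1.64 at passage 25.

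Of 27 neuronal genes on the array, 15 were detected on none of the 4 signal arrays, among them Rbfox3, Tubb3 and Snap25. For this count and those of microglial and endothelial genes, the like share of all genes was not computed. The detection filter, which asks for 2 of the 4 arrays, was met by 8 of the 27 neuronal genes. It was met by 1 of 18 microglial genes, 7 of 19 endothelial genes and 8545 of all 16593 genes. Of the 8 neuronal genes tested, 1 rose and 4 fell in signal (median -0.55), or 1 and 1 among those detected on all 4 arrays. All 8 fell in value (median -3.19). Gap43, a growth cone protein, was at least 1.80-fold lower at passage 25 in signal and fell from values of 11.88 and 11.98 to 5.09 and 5.47. Syn1, a synaptic vesicle protein, had signals of 5.50 and 5.45 in OPC and 7.01 and 6.68 at passage 25, a rise of 1.37, and values of 10.33 and 10.41 against 1.78 and 1.99, a fall of 8.49. The summed neuronal level was 1452 and 1457 in OPC against 1088 and 1017 at passage 25 in signal, and 13595 and 13646 against 1502 and 1459 in value. In the signal columns headed passage 15 it was 12068 and 12752. Its part in the differences of the value table was not tested. Of 18 microglial genes on the array, 17 were detected on none of the 4 arrays, Cx3cr1, Aif1 and Ptprc among them. The remaining gene, Cd14, had signals of 9.70 and 9.66 in OPC and 8.97 and 8.90 at passage 25. Of 19 endothelial genes, 11 were detected on none, among them Pecam1 and Cdh5. The 7 tested were called, 4 higher and 3 lower, in signal, and 2 rose and 2 fell in value. The summed endothelial signal was 892 and 940 in OPC and 1286 and 1274 at passage 25.

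**Figure D5:**
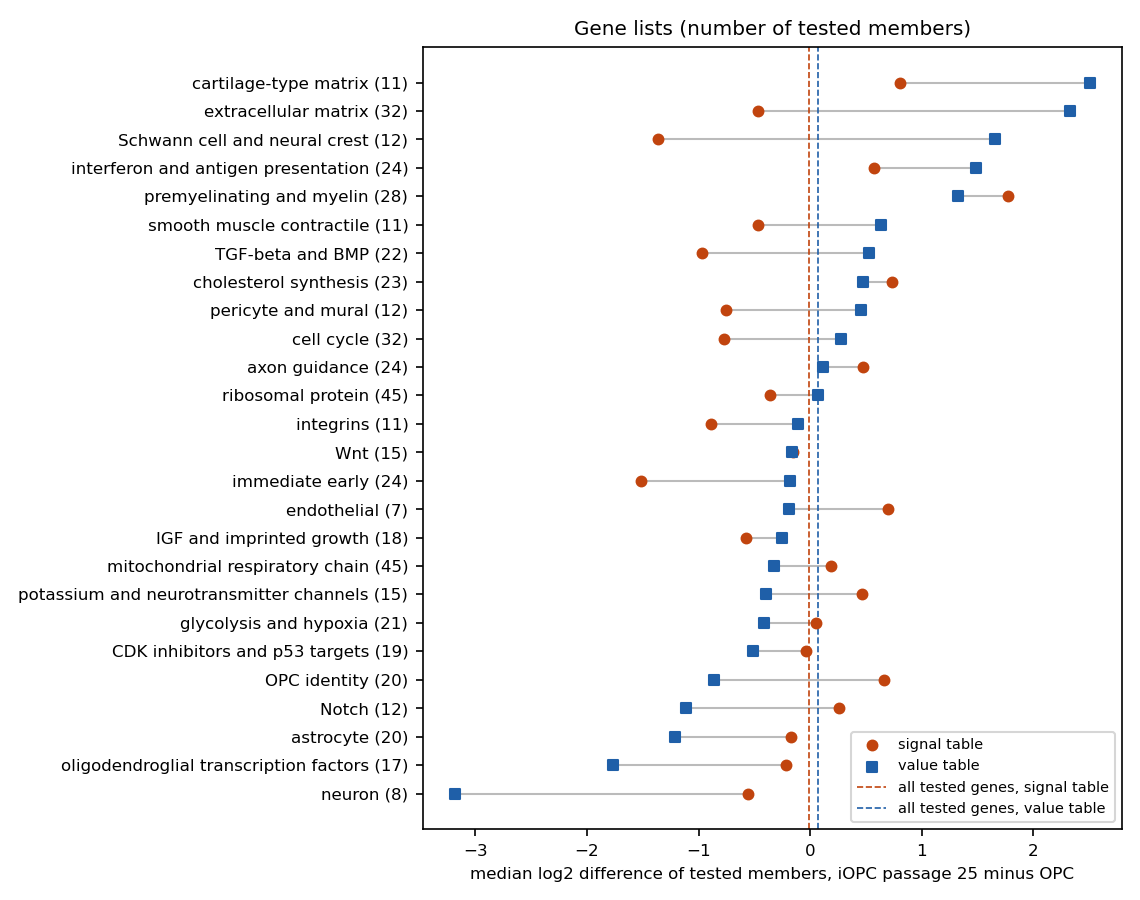
Median log2 difference (iOPC passage 25 minus OPC) of the tested members of each gene list with at least 5 of them, in the signal table (circles) and the value table (squares), with dashed lines at the medians of all 8545 genes. The premyelinating and myelin, interferon, cartilage-type matrix, cholesterol and axon guidance lists lie right of the dashed lines in both tables. Many lists lie on opposite sides, among them the extracellular matrix, Schwann cell, cell cycle and OPC identity lists.

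Genes of the cell cycle were lower at passage 25 in signal, 28 of 32 with 3 higher (median -0.77), while 11 rose and 3 fell in value (median 0.28; 12 and 7 when the 4 arrays were fitted alone). Kif11, a spindle motor, and Cenpa, the centromeric histone, fell by 1.41 and 1.22 in signal and differed by 0.43, not called, and 1.02, called, in value. Plk1, a mitotic kinase, had signals of 8.16 and 8.13 in OPC and 7.29 and 7.40 at passage 25 and values of 9.21 and 9.28 against 10.83 and 10.99, a fall of 0.80 and a rise of 1.66. Ccna2, cyclin A, gave -0.97 and 1.46. Mcm2, a subunit of the replicative helicase, and Ccnd2, cyclin D2, were the genes that fell in both. Ccnd2 was at least 1.60-fold lower at passage 25 in signal and had the largest fall of the value table, from 13.46 on both OPC arrays to 1.33 and 1.52. In PC its signals were 12.77 and 12.64.

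Among inhibitors of cyclin-dependent kinases and targets of p53, 5 of 19 rose and 7 fell in signal, and 3 rose and 8 fell in value; the median in signal was -0.04 and turned to 0.09 with median scaling and 0.07 without OPC replicate 1. Btg2, Sesn2, Zmat3 and Trp53inp1, which are induced by p53, fell in both tables, Zmat3 by 1.17 and 2.40. Cdkn1c, the imprinted inhibitor p57, had signals of 9.29 and 9.19 against 7.01 and 7.08, a fall of 2.19, and rose by 2.04 in value. Plk2, a kinase of early G1 phase, fell by 4.03 in signal, from 9.61 and 9.72 to 5.55 and 5.72, and differed by 0.29 in value, not called. Cdkn2a was detected on none of the 4 signal arrays, and its values were 7.97 and 8.19 in OPC and 2.63 and 3.27 at passage 25.

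Immediate early genes, which growth factors and cell handling switch on within minutes, fell in 19 of 24 in signal with 1 higher (median -1.52), and 5 rose and 8 fell in value (median -0.18). The 6 that fell in both, as 8.41% of all genes did, were Fos, Junb, Egr1, Egr2, Dusp6 and Btg2. Dusp6, a phosphatase of the MAP kinase ERK, fell by 3.61 and 1.07, and Junb by 2.06 and 3.00. Klf4, a zinc finger factor, had signals of 9.72 and 9.77 in OPC and 5.00 and 5.88 at passage 25, a fall of 4.31, and values of 2.93 and 3.73 against 4.94 and 5.22, a rise of 1.75 that was lost with the median of its 3 probes (0.20). Nr4a2 and Klf2 fell by 2.41 and 1.77 in signal and rose by 3.43 and 4.19 in value.

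Interferon-induced and antigen presentation genes rose in 16 of 24 in each table, with 3 and 1 lower and medians of 0.57 and 1.49, where 30.1% and 26.8% of all genes were called higher. The 10 that rose in both, as 9.83% of all genes did, were Irf1, Irf9, Ifit3, Isg15, Usp18, Ifi27, Ifi35, Psmb9, Tap2 and H2-K1. Ifi27, a mitochondrial interferon-induced protein, had signals of 10.93 and 10.87 in OPC and 12.32 and 12.35 at passage 25 and values of 8.70 and 8.82 against 12.17 and 12.08, rises of 1.43 and 3.36. Ifit3, which binds viral RNA in a complex, rose by 2.77 and 1.86, and Usp18, which removes the modifier ISG15, by 2.07 and 1.60. Bst2, tetherin, differed by -0.37 in signal, not called, and rose by 5.77 in value. Gbp3, a guanylate-binding protein, was opposite, with a rise of 3.16 and a fall of 2.81. In PC signal Ifi27 stood at 10.98 and 11.18.

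Genes of cholesterol and fatty acid synthesis rose in 18 of 23 in signal with 2 lower (median 0.73), and in value 10 rose and 4 fell (median 0.48), with 4 rises when either OPC array was left out and 5 or 6 when a passage 25 array was. The 8 that rose in both, as 9.83% of all genes did, were Pmvk, Cyp51, Tm7sf2, Hsd17b7, Ebp, Sc5d, Fads1 and Scd1. Scd1, stearoyl-CoA desaturase, had signals of 11.31 and 11.13 in OPC and 13.44 and 13.46 at passage 25 and values of 10.26 and 10.54 against 11.80 and 11.88, rises of 2.23 and 1.44. Sc5d and Hsd17b7, late enzymes of the sterol pathway, rose by 1.16 and 0.95 and by 1.08 and 1.07. Dhcr7, which catalyses the last step to cholesterol, rose by 0.80 and fell by 1.85, and Fasn, fatty acid synthase, rose by 0.93 and fell by 1.48. Without OPC replicate 1 the Fasn value call was lost (-1.62), as it was without OPC replicate 2 (-1.34) or passage 25 replicate 2 (-1.01).

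Members of the transforming growth factor beta and bone morphogenetic protein pathways fell in 15 of 22 in signal with 3 higher (median -0.97, or -0.82 with genes below background at their bound), and 8 rose and 6 fell in value (median 0.53). The target genes Id1, Id2, Id3 and Id4 fell in both tables, Id1, detected on 1 passage 25 array, by 3.02 and 1.78 and Id3 by 1.66 and 3.20. Among the ligands, Bmp7 fell from signals of 9.27 and 9.19 to 6.19 and 5.92 and from values of 9.28 and 9.26 to 7.18 and 7.34, whereas Bmp4 rose by 1.36 and 3.06 and Tgfb3 by 1.37 and 3.97. Of the receptors, Bmpr2 was at least 1.43-fold lower in signal and fell by 2.09 in value. Tgfbr2 had signals of 11.00 and 11.08 against 9.02 and 8.80 and values of 5.25 and 5.39 against 11.54 and 11.40, a fall of 2.13 and a rise of 6.15.

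Of 12 tested Notch genes, 5 rose and 3 fell in signal and 1 rose and 7 fell in value, with medians of 0.26 and -1.11. Another 13 on the array, among them Hes5 and Dll3, missed the detection filter of the signal columns and were tested in neither table. The shares of all genes were 30.1% and 31.9% in signal, to which the Notch counts were close, and 26.8% and 21.0% in value. Hes1 had signals of 9.37 and 9.36 in OPC and 6.98 and 6.92 at passage 25 and values of 7.43 and 7.45 against 5.60 and 5.74. Dtx4, a Deltex ubiquitin ligase, was at least 1.81-fold lower at passage 25 in signal and fell by 4.64 in value. The related target genes Hey1 and Hey2 rose by 2.46 and 2.07 in signal and fell by 2.81 and 1.40 in value, and Nrarp, a feedback inhibitor, was at least 2.35-fold higher in signal and fell by 6.48 in value. Of 15 Wnt genes, 6 rose and 5 fell in signal and 5 rose and 3 fell in value, little different from the shares of all genes. Axin2, a feedback target of Wnt, rose in both by 1.78 and 0.96. Wnt5a, a ligand, rose by 0.72 and fell by 4.97, and the receptor Fzd7 gave -2.30 and 1.80.

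Among genes of insulin-like growth factor signalling and imprinted growth control, 5 of 18 rose and 11 fell in signal and 6 rose and 7 fell in value. Igfbp5 rose by 2.70 and 0.69 and Igfbp3 was at least 2.87-fold lower in signal and fell by 3.84 in value. Grb10, an imprinted adaptor of the insulin receptor, had signals of 10.35 and 10.30 in OPC and 6.36 and 5.95 at passage 25 and values of 7.10 and 6.89 against 12.62 and 12.40. The differences of -4.17 and 5.52 (limma adjusted p = 2.05e-09 and 9.39e-07) placed it among the most opposed genes. Igf1, the ligand, was at least 3.26-fold higher in signal and differed by 0.57 in value, not called.

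Receptors and channels of the cell surface were also divided. Kcna1, the potassium channel Kv1.1, was not well above background in OPC signal and stood at 11.76 and 11.77 at passage 25, at least 125-fold higher. Its values were 3.40 and 3.53 against 4.03 and 3.38, a difference of 0.24 that was not called. Kcna5, another channel of this family, was at least 14.4-fold higher in signal and differed by -0.80 in value, not called. Of 15 potassium and neurotransmitter channel genes, 9 rose and 3 fell in signal and 3 rose and 4 fell in value. Kcnk5, a tandem-pore potassium channel, rose in both by 0.65 and 4.90. Of 24 axon guidance genes, 13 rose and 9 fell in signal and 7 rose and 5 fell in value, and the semaphorins Sema3b, Sema3f and Sema4f with the receptor Plxnb3 rose in both, Sema4f by 1.06 and 3.05. Of 11 integrins, 3 rose and 7 fell in signal and 3 rose and 5 fell in value. Itgb4 rose by 1.62 and 6.39 and Itgb5 was at least 3.78-fold lower in signal and fell by 3.04 in value.

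Ribosomal protein genes fell in 29 of 45 in signal with 0 higher (median -0.36; 20 lower and 4 higher with median scaling), and 4 rose and 1 fell in value (median 0.07, and -0.03 when columns were centred). Rplp0, a stalk protein, had signals of 9.41 and 9.56 against 8.61 and 8.53 and values of 9.10 and 9.07 against 9.86 and 10.14. Genes of the mitochondrial respiratory chain rose in 16 of 45 with 6 lower in signal (median 0.18; 30 and 1 with median scaling, 9 and 3 without OPC replicate 2, 10 and 3 without passage 25 replicate 2), and 2 rose and 12 fell in value (median -0.32; 1 and 4 without OPC replicate 1, 1 and 7 without OPC replicate 2, 1 and 8 without passage 25 replicate 2). Ribosomal and mitochondrial genes have many near-identical copies, so their probes may share signal. Of 21 genes of glycolysis and hypoxia, 7 rose and 6 fell in signal, near the 30.1% and 31.9% of all genes, and 7 rose and 8 fell in value, against 26.8% and 21.0%. P4ha1, a collagen hydroxylase, and Slc2a1, the glucose transporter, rose in both, by 0.71 and 1.54 and by 0.55 and 0.80.

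Several of the largest rises of the signal table outside these groups were not called in value. Hhatl, a relative of the hedgehog acyltransferase, was at least 95.9-fold higher at passage 25 and differed by 0.92 in value (limma adjusted p = 0.0527), or was called there with the passage 25 replicate 1 array left out (1.43). Slc16a8, a lactate transporter, and Chst8, a sulfotransferase, were at least 26.9-fold and at least 18.3-fold higher in signal and differed by -0.41 and -1.25 in value, neither called. Rasl12, a Ras-like small GTPase, rose in both tables, by 4.88 and 1.18, from signals of 6.35 and 6.38 to 11.21 and 11.29, and its value call was lost when any 1 array was left out. The largest falls of the signal table included Mef2c, a MADS-box factor, which went from 9.59 and 9.58 to 4.97 and 5.21 and rose by 3.09 in value. Ets1, a factor of endothelial and crest cells, fell by 4.18 in signal and differed by -0.23 in value, not called. Mmp3, stromelysin, was at least 10.0-fold lower in signal. Dcpp2 and Dcpp3, near-identical secreted proteins whose probes cannot be told apart with certainty, were lower in signal, Dcpp3 by at least 16.7-fold, and rose by 2.72 and 2.43 in value; with values under 4 set to 4, Dcpp3 was not called (0.13).

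Among the largest rises of the value table was also that of Capn6, a calpain without protease activity, by 8.97, with signals of 11.17 and 11.11 in OPC and 11.48 and 11.36 at passage 25. The rise of 0.28 in signal was lost without OPC replicate 2 (0.25) or passage 25 replicate 1 (0.22). Among the falls, Astn1, a neuronal adhesion protein, and Susd4, a regulator of complement, differed by -0.15 and -0.24 in signal, neither called, and fell by 8.54 and 8.22 in value. Septin3, a neuronal septin detected on 1 passage 25 array, fell by 1.34 and 8.20. The most opposed genes that were higher in signal and lower in value were Acsl6, a fatty acyl-CoA synthetase, at least 13.7-fold higher and then -6.43, and Klk8, a secreted protease detected on 1 OPC array, at 4.13 and -4.26. Fxyd6, a regulator of the sodium pump, had signals of 6.20 and 6.15 in OPC and 10.25 and 10.31 at passage 25 and values of 12.13 and 12.15 against 7.99 and 8.02. Ppp2r2c, a subunit of protein phosphatase 2A, was at least 11.5-fold higher in signal by 1 of its 2 probes and gave -4.43 in value. Its other probe differed by 0.13 in signal (not called). Opposed the other way were Rtl3, a gene derived from a retrotransposon, at least 9.43-fold lower and then 8.17, and Atp8b1, a lipid flippase, at -3.32 and 4.95.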

How the data were processed

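Total RNA of 10 mouse samples was turned into labelled cRNA and read on Illumina arrays, per the labels' protocols. The deposited signal table holds an intensity per probe, non-normalized per the file headers, with a detection p-value beside each, deposited by the authors, whose steps imply 798 negative controls. The deposited value table holds log2 values, with a median of 3.29 in the first PC column and a range of 0.519 to 14.4 over all columns. In PC columns these values rose by 1.01 per unit of log2 signal (2659 bright probes). No centring of genes was seen, and the background correction behind them stays unknown. Per the submitters' processing notes, BeadStudio 3.2, RMA and lumi were used, at steps not given in the sources used here.

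Background correction of the signals, quantile normalization and log2 transformation used neqc with an offset of 16 (R 4.3.3, limma 3.58.1). The platform annotation gave 23978 of 25697 probes 1 symbol, 0 several and 1719 none, 23962 of them updated through an Entrez identifier. For the 2352 genes with more than 1 member probe the brightest over the 4 arrays was used, in both tables, and 43 of 140 named genes have several probes, with 7 whose probes differ in sign (Mbp, Acta2, Mmp3, Ppp2r2c, Matn4, Col9a1 and Ndrg1). Each table was fitted with limma (lmFit and eBayes, 5 group means over 10 arrays, 5 residual degrees of freedom), two-sided, as passage 25 minus OPC. Standard errors of named genes were 0.0732 to 0.226 in signal and 0.125 to 0.781 in value, and adjusted p-values of their calls were at most 0.0385 and 0.0433. Between 45.7% and 49.2% of probes were detected per array; mean signals were 333 and 374 in OPC and 299 and 268 at passage 25. The number of arrays limits the precision, and the fit was tested on simulated data.

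Genes were named by rule: in each table the 8 largest called rises and falls without overlap between groups, the 8 shared in each direction and 4 opposed in each direction by the smaller of the differences, up to 4 per list, and 16 markers; predicted genes and clones were left out. Other list members are named to show which were called. Members, 28 lists (845 genes, 744 on the array, 513 tested) and tests were chosen with earlier results of these data known. Replicate numbers did not pair OPC with passage 25 arrays: deviations of like-numbered arrays correlated at 0.037 in signal and -0.0037 in value.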

Additional observations from a re-analysis of the deposited data

How the results depend on the processing

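No setting moved the total calls of a table by more than 1.5 times. Signal calls numbered 5297 (4994 when only the 4 arrays were fitted) and value calls 4086 (5005, and 4989 without the arrays headed passage 5). Median scaling moved the share of higher calls in signal from 48.6% to 59.4%, and centring gave 2046 higher and 2049 lower calls in value and moved the median of all genes there by -0.098. Leaving out each array in turn gave 4584 to 4831 calls in signal and 2728 to 3235 in value. The lower calls in value ranged from 1132 to 1407 and the genes called alike from 972 to 1220, against 1798 and 1559. With the replicate number as a block, calls were 5226 and 4021 and genes called alike 1526, against 1559 without it. The block ended the value calls of Higd1a (1.31) and Atp5g1 (-0.65), added that of Hhatl (0.92) and changed no other call of a named gene; the numbers pair nothing by the labels. Over all settings, 2312 repeats of named genes in signal and 1875 in value kept direction and call, 25 and 54 lost the call and 10 and 21 gained it. Ppp2r2c turned to 0.092 (limma adjusted p = 0.858) in value when genes were filtered on the value table, where its other probe was used. Signal over background limits dim genes: those detected on neither array of a group have only bounds in signal, differences of those detected on 1 array rest partly on a level near background, and the value table gives no bounds.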
